A study of Rattus norvegicus with 10 samples.

Results

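Collagens are the triple-helical proteins of the extracellular matrix, and each collagen gene codes for 1 chain. Type I and type III chains form fibrils in connective tissue such as the meninges, type IV chains form the sheets of the basement membrane around blood vessels, fibril-associated collagens decorate fibrils, and transmembrane collagens sit in the cell surface. In the brain these chains are best known from vessels and meninges, and some are also made by neurons and glia. The data described here are those of the collagen genes, taken as every gene of the nucleus files whose symbol is Col, a number, a and a number. This rule found 42 genes among 25399 in the nucleus files, and 34 of the 42 were also among the 14166 genes of the bulk table. The 8 without a bulk value were Col2a1, Col6a4, Col6a6, Col9a1, Col10a1, Col15a1, Col17a1 and Col22a1. Col1a2, the second chain of type I collagen, was measured in bulk only and is therefore no member.

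The tissue was the ipsilateral dentate gyrus of adult male Sprague Dawley rats, 3 weeks after lateral fluid percussion injury (LFPI), a fluid pulse onto the intact dura that models traumatic brain injury (TBI). Bulk RNA-seq covered 3 TBI and 3 sham rats, sham rats having had the craniectomy without the pulse. For single-nucleus RNA-seq (snRNA-seq) there were 4 rats, each giving 1 library. Of these 2 had TBI, 1 was a sham rat and 1 a naïve rat, the latter pair serving as controls. Bulk libraries held 25121893 to 44649404 estimated counts, and 11285 to 16931 nuclei per rat passed the filters, with a median of 1647 to 2652 UMIs (unique transcripts counted). Pairs of nucleus libraries shared 45 to 60 cell barcodes. The p-values set each difference against the spread between libraries, and with so few rats that spread is estimated partly from all genes together.

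TBI replicate 3 stood apart from the other bulk libraries for genes of the vessel wall and the meninges. It was also the highest library for 24 of the 34 measured collagen genes. The 12 measured fibroblast and meningeal markers summed to 88.5, 136 and 80.5 CPM (counts scaled to the size of each library) in the sham libraries and to 225, 150 and 1020 CPM in the TBI libraries. All 12 had a higher Log2FC in TBI, 9 of them with an unadjusted p under 0.05, and 11 were highest in TBI replicate 3. The 11 mural markers summed to 209 to 237 CPM in sham and to 325, 284 and 1150 CPM in TBI, and the 11 endothelial markers to 309 to 345 CPM and to 387, 357 and 718 CPM. Choroid plexus markers summed to 70.5 to 281 CPM in sham and to 72.3 to 120 CPM in TBI, so these groups overlapped. The part that these cells have in the collagen values was not tested. In bulk tissue, more cells of a type and more RNA per cell cannot be told apart.

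In bulk RNA-seq, collagen transcripts were more often higher than lower in TBI. By edgeR's quasi-likelihood test, 8 of the 34 measured members were higher in TBI with an unadjusted p under 0.05, and 0 were lower. Over all 14166 genes, 8.2% were higher and 1.4% lower by the same rule. Of the 34, 31 had a Log2FC above 0, and their median Log2FC was 0.57 beside 0.00 over all genes. None passed a false discovery rate (FDR) of 0.01 in edgeR, and neither did any other gene of the table (0 of 14166), where 1162 genes were higher and 198 lower with an unadjusted p under 0.05. By DESeq2, 11 members were higher and 1 was lower with an unadjusted p under 0.05, beside 8.11% and 2.66% of all genes. At an FDR of 0.01 by DESeq2, 0 members passed beside 1.19% of all genes. With the adjustment used in the study, over genes with an unadjusted p under 0.05 alone, 3 members passed (Col16a1, Col1a1 and Col3a1, each at an FDR of 0.00804) beside 3.35% of all genes. Every TBI library lay above every sham library for 5 members, where 11.7% of all genes did so, and below for 0, where 3.06% did so. Without TBI replicate 3 the members higher in TBI numbered 4, beside 5.74% of all genes, and the median of the members was 0.23. They numbered 5 without sham replicate 3 (5.03% of all genes) and 16 without TBI replicate 2 (6.55%), and 4 with the period of the injury date as a covariate (5.57%). TBI replicate 3 was the highest of the 6 libraries for 24 of the 34 members (70.6%), beside 24.2% of all genes.

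The fibril-forming chains Col1a1 and Col3a1 had the largest Log2FC of the 34 members. Col1a1 (Entrez 29393), the main chain of type I collagen, stood at 7.54, 14.5 and 5.9 CPM in the sham libraries and at 41.2, 15.3 and 283 CPM in the TBI libraries. All TBI values lay above all sham values, but TBI replicate 2 exceeded sham replicate 2 by less than 1 CPM. The Log2FC was 3.56 ± 1.04 (SE), with an unadjusted p of 0.0104 and an FDR of 0.313, and it was 1.58 without TBI replicate 3 (unadjusted p = 0.0183). Col3a1 (Entrez 84032), the chain of type III collagen, followed the same order with 4.8, 9.46 and 4.01 CPM in sham and 27.3, 9.7 and 182 CPM in TBI. Its Log2FC was 3.54 ± 1.04 (unadjusted p = 0.0106), and 1.58 without TBI replicate 3 (unadjusted p = 0.0201). The libraries thus ranked alike for both genes, with TBI replicate 3 highest and TBI replicate 1 next. Col5a1 (Entrez 85490), a chain of the type V collagen that copolymerises into type I fibrils, stood at 23.7, 13.7 and 20.6 CPM in sham and 36, 18.5 and 78.3 CPM in TBI, so the groups overlapped. Its Log2FC of 1.15 ± 0.48 (unadjusted p = 0.046) was 0.46 without TBI replicate 3 (unadjusted p = 0.206). Col5a1 kept the call in 1 of the 6 fits that left out 1 library.

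**Figure D1:**
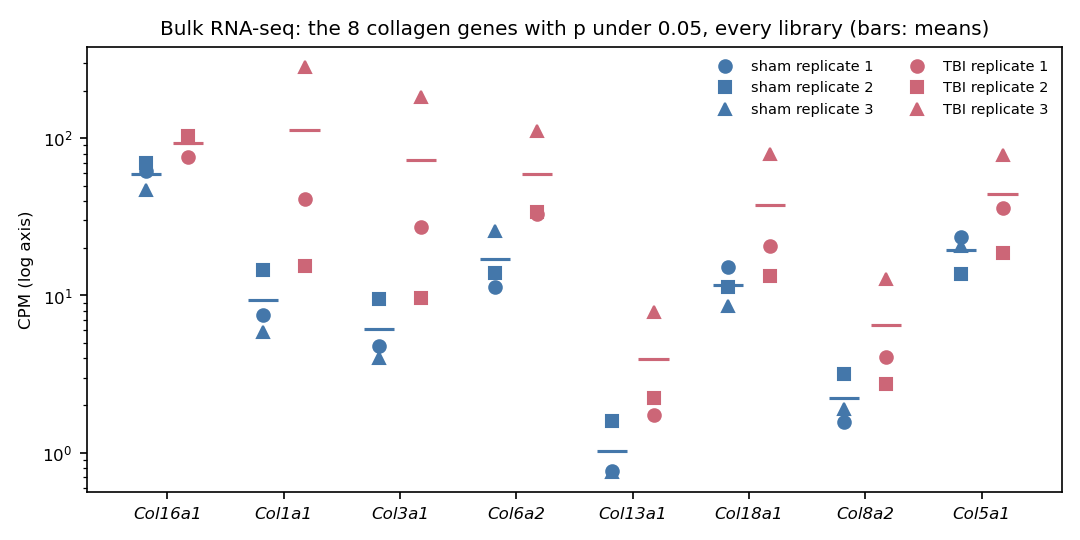
CPM on a log axis of the 8 collagen genes with an unadjusted p under 0.05 in bulk, 1 point per library and a bar for each group mean (3 sham, 3 TBI). TBI replicate 3 is the highest point for every gene but Col16a1, for which TBI replicate 2 is highest at 103 CPM.

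Col16a1 (Entrez 366474), a fibril-associated collagen, differed in that TBI replicate 3 did not stand apart. The sham libraries held 62.2, 69.4 and 46.9 CPM and the TBI libraries 76.3, 103 and 101 CPM, with no overlap. The 9 measured astrocyte markers summed to 4760, 5020 and 4150 CPM in sham and 6970, 10000 and 7340 CPM in TBI, and the 12 microglia markers to 564, 558 and 552 against 906, 1530 and 938 CPM, both highest in TBI replicate 2 as was Col16a1. Their part in the value was not tested. The Log2FC of Col16a1 was 0.61 ± 0.18 with an unadjusted p of 0.00939 and an FDR of 0.3, the smallest p of the 34 members. Without TBI replicate 3 the Log2FC was 0.56 (unadjusted p = 0.0303), and across the 6 fits that left out 1 library it lay between 0.46 and 0.74. The dates of injury were split into 2 periods, here called spring (months before July) and autumn (July and later). The labels name no season. The difference was 0.22 in spring (1 TBI and 2 sham rats) and 1.12 in autumn (2 TBI rats and 1 sham rat) on the log2 scale. Col1a1 differed by 1.98 and 3.48, Col3a1 by 2.02 and 3.39, Col6a2 by 1.39 and 1.26, and Col13a1 by 0.66 and 2.46 within the same periods, so each of these was higher in TBI in both.

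Col6a2 (Entrez 361821), a chain of the beaded filaments of type VI collagen, stood at 11.4, 14 and 25.7 CPM in sham and 33.2, 33.8 and 112 CPM in TBI. The lowest TBI library lay above the highest sham library, and the Log2FC was 1.75 ± 0.54 (unadjusted p = 0.0133), or 0.94 without TBI replicate 3 (unadjusted p = 0.0302). The call was lost without sham replicate 2 (unadjusted p = 0.0518). Col13a1 (Entrez 499431), a transmembrane collagen, had lower levels, with 0.762, 1.58 and 0.752 CPM in sham and 1.74, 2.22 and 7.83 CPM in TBI. Its groups did not overlap either, and the Log2FC of 1.89 ± 0.65 (unadjusted p = 0.0211) was 0.92 without TBI replicate 3 (unadjusted p = 0.0989). It also lost the call without sham replicate 1 or 3 (0.059 and 0.0767) and with the period as covariate (0.0943). Col18a1 (Entrez 85251), the vascular basement membrane collagen that gives rise to endostatin, stood at 15.2, 11.4 and 8.63 CPM in sham and 20.7, 13.4 and 79.5 CPM in TBI, so that TBI replicate 2 lay within the sham range. The Log2FC was 1.65 ± 0.63 (unadjusted p = 0.0323), or 0.52 without TBI replicate 3 (unadjusted p = 0.111). Col8a2 (Entrez 313592), a chain of the type VIII network of vessel walls, stood at 1.56, 3.19 and 1.91 CPM in sham and 4.04, 2.74 and 12.8 CPM in TBI. These groups overlapped too, and the Log2FC of 1.51 ± 0.6 (unadjusted p = 0.0377) was 0.58 without TBI replicate 3 (unadjusted p = 0.2). Col18a1 and Col8a2 each kept the call in 3 of the 6 fits that left out 1 library.

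Type IV collagen showed no call in bulk by edgeR, although 6 of its 6 chains had a Log2FC above 0 and were highest in TBI replicate 3. By DESeq2 with the adjustment of the study, Col4a5 and Col4a6 were higher at an FDR of 0.0454 and 0.0438. Col4a1 stood at 60.1, 69.9 and 62.3 CPM in sham and 66, 54.6 and 103 CPM in TBI, a Log2FC of 0.17 ± 0.22 that was -0.12 without TBI replicate 3. Col4a2, its partner in the common basement membrane molecule, stood at 99.7, 97.7 and 113 CPM in sham and 98.7, 102 and 124 CPM in TBI, a Log2FC of 0.02 ± 0.12. Both genes thus had TBI libraries on either side of the sham mean. The Log2FC of the other type IV chains was 0.41 ± 0.19 for Col4a3, 0.56 ± 0.26 for Col4a4, 0.86 ± 0.43 for Col4a5 and 1.27 ± 0.6 for Col4a6, with unadjusted p between 0.0658 and 0.0818.

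The remaining members named by their bulk level were also without a call. Col11a2, a fibrillar chain best known from cartilage, stood at 336, 233 and 248 CPM in sham and 323, 301 and 354 CPM in TBI (Log2FC 0.22 ± 0.15). Col5a2, a type V chain, stood at 44.3, 44.2 and 71.2 CPM in sham and 57.6, 72.8 and 87.8 CPM in TBI (Log2FC 0.41 ± 0.23). For both genes the groups overlapped. Of all 34 members, 3 had a Log2FC below 0. These were Col25a1, a transmembrane collagen of neurons also found in amyloid plaques, with -0.4 ± 0.18 (unadjusted p = 0.0544), the fibrillar Col24a1 with -0.57 ± 0.35, and the fibrillar Col11a1 with -0.02 ± 0.25. Col25a1 was the member lower by DESeq2, at an FDR of 0.0448 with the adjustment of the study. Col1a2, no member, had a Log2FC of 4 ± 1.1 (unadjusted p = 0.00762), with 8.28, 15.5 and 5.92 CPM in sham and 66.5, 17.2 and 408 CPM in TBI, the same order of libraries as Col1a1 and Col3a1.

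**Figure D2:**
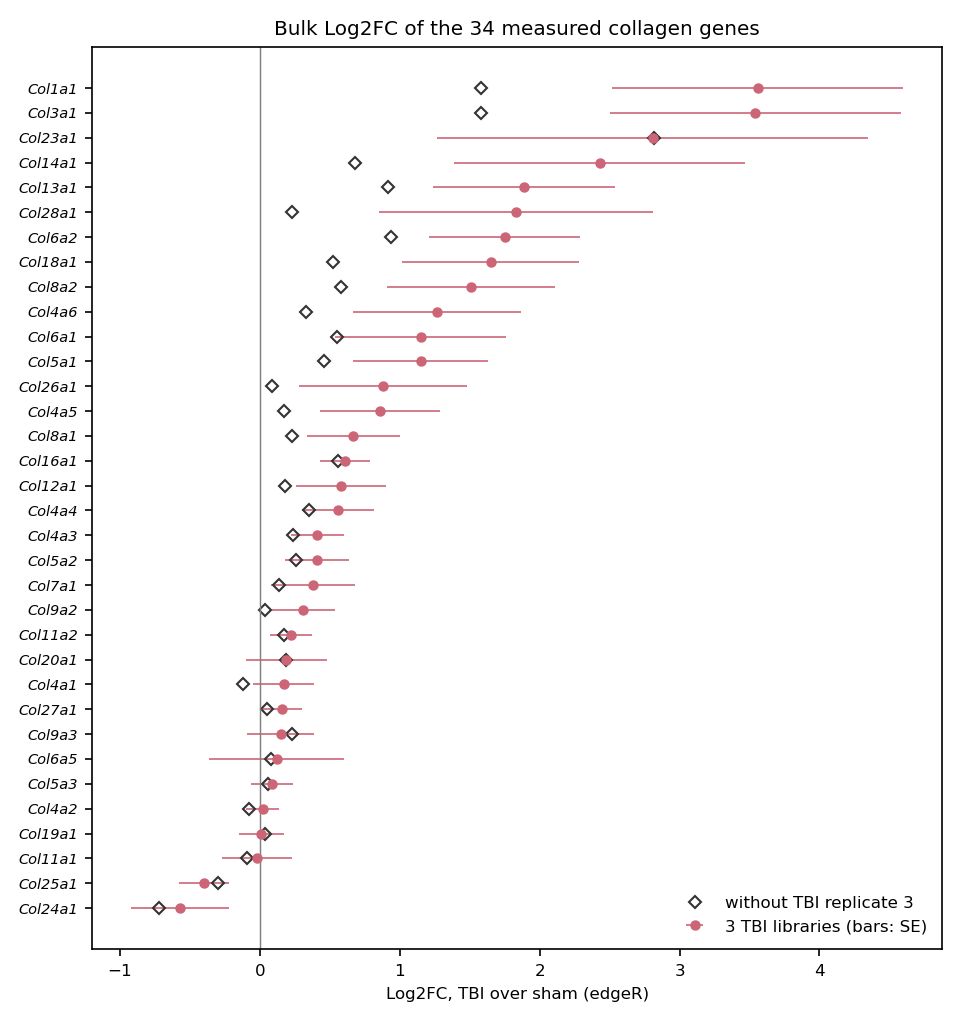
Log2FC of TBI over sham from edgeR for the 34 collagen genes in bulk (filled points, bars are SE) and the same without TBI replicate 3 (open diamonds). Col1a1 falls from 3.56 to 1.58 and Col18a1 from 1.65 to 0.52 without that library, while Col16a1 goes from 0.61 to 0.56.

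**Figure D3:**
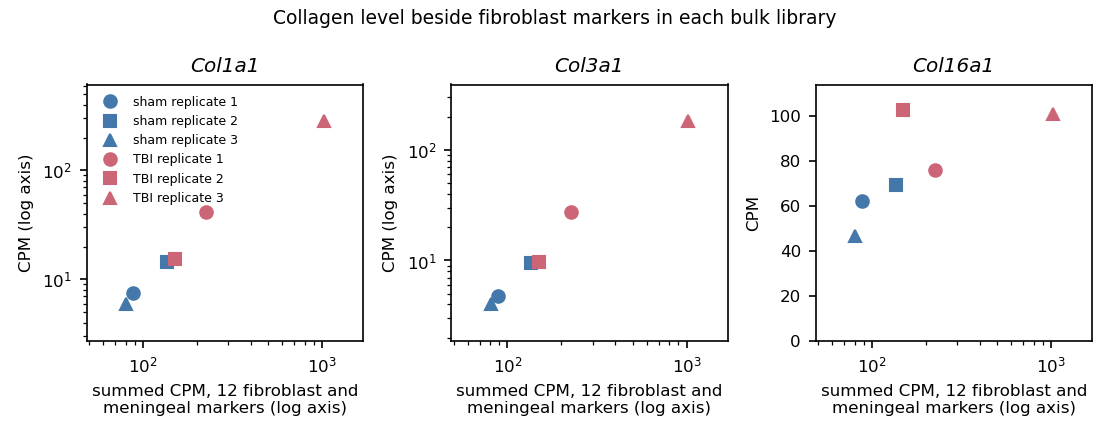
CPM of Col1a1, Col3a1 (log axes) and Col16a1 (linear vertical axis) against the summed CPM of 12 fibroblast and meningeal markers, 1 point per bulk library. Col1a1 and Col3a1 rank the 6 libraries as the markers do, from sham replicate 3 (80.5 CPM of markers) to TBI replicate 3 (1020 CPM), while Col16a1 is highest in TBI replicate 2.

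The genes that make, modify, bind and break down collagen were read from lists in the same fit. The share of all genes called in these lists' fit was 8.2% higher and 1.4% lower. Of 26 measured synthesis and processing enzymes, 10 were higher in TBI with an unadjusted p under 0.05 and 0 were lower, with a median Log2FC of 0.4, or 0.31 without TBI replicate 3, and 19 of the 26 were highest in that library. Bmp1, which cleaves the carboxyl ends of procollagens, stood at 35.4, 33.7 and 27.7 CPM in sham and 46, 46.3 and 46.7 CPM in TBI (Log2FC 0.49 ± 0.11, unadjusted p = 0.00301). Its TBI values lay close to one another and above all sham values. Pcolce, which enhances that cleavage, was far higher in TBI replicate 3, with 1.79, 2.57 and 1.85 CPM in sham and 5.54, 3.66 and 29.1 CPM in TBI (Log2FC 2.58 ± 0.77, unadjusted p = 0.0112). The lysyl hydroxylases Plod1, Plod2 and Plod3, which prepare collagen for cross-links, had Log2FC of 0.43 ± 0.17, 0.92 ± 0.28 and 0.43 ± 0.12. Serpinh1, the collagen chaperone HSP47, had 0.66 ± 0.25, and P4hb, a subunit of the prolyl hydroxylase, 0.32 ± 0.12. The others were Fkbp10 (0.73 ± 0.24), Loxl2 (1.1 ± 0.44) and Loxl3 (0.44 ± 0.17). Without TBI replicate 3, Bmp1, Plod2, Plod3 and Pcolce kept an unadjusted p under 0.05. Ppib, a prolyl isomerase with one of the highest bulk levels of its list, had a Log2FC of 0.08 ± 0.09.

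Among 7 measured collagen receptors, 1 was higher in TBI and 0 lower (8.2% and 1.4% of all genes), with a median Log2FC of 0.44. This was Mrc2, the receptor by which cells take up cleaved collagen, with 15.9, 24.3 and 12 CPM in sham and 26, 36 and 60.6 CPM in TBI (Log2FC 1.2 ± 0.35, unadjusted p = 0.0112). Its groups did not overlap, and without TBI replicate 3 the Log2FC was 0.81 (unadjusted p = 0.0349). The integrin chain Itgb1 and the discoidin receptor Ddr1 had Log2FC of 0.44 ± 0.21 and 0.11 ± 0.27.

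Of 8 measured breakdown enzymes and inhibitors, 5 were higher in TBI and 0 lower (8.2% and 1.4% of all genes), with a median Log2FC of 0.83. Timp2, an inhibitor of matrix metalloproteinases, stood at 120, 134 and 162 CPM in sham and 198, 230 and 250 CPM in TBI (Log2FC 0.67 ± 0.15, unadjusted p = 0.00228). The gelatinase Mmp2 stood at 6.4, 9.28 and 5.56 CPM in sham and 12.3, 16.5 and 12.8 CPM in TBI (Log2FC 0.94 ± 0.23, unadjusted p = 0.00447). TBI replicate 3 was not the highest library for Mmp2, and neither gene overlapped between groups. Timp1, the inhibitor induced in inflamed tissue, had a Log2FC of 1.6 ± 0.38, Mmp14 of 1.16 ± 0.44 and Timp3 of 0.97 ± 0.41. Of these 5, Timp2, Mmp2 and Timp1 kept an unadjusted p under 0.05 without TBI replicate 3.

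Of 18 measured basement membrane and fibril partners, 8 were higher in TBI and 0 lower (8.2% and 1.4% of all genes), and 16 of the 18 were highest in TBI replicate 3. Their median Log2FC of 0.86 was 0.28 without that library. Sparc, a collagen-binding protein of vessels and glia, stood at 572, 544 and 527 CPM in sham and 798, 978 and 1150 CPM in TBI (Log2FC 0.79 ± 0.14, unadjusted p = 0.000582), and at 0.67 without TBI replicate 3 (unadjusted p = 0.00172). Fmod, fibromodulin, which binds type I fibrils, stood at 3.81, 6.84 and 6.33 CPM in sham and 20.6, 12.3 and 97.9 CPM in TBI (Log2FC 2.88 ± 0.76). The TBI libraries lay above sham for both. Lamb2 (0.96 ± 0.3), Postn (1.24 ± 0.42), Bgn (1.33 ± 0.47), Thbs2 (2.56 ± 0.9), Fn1 (1.26 ± 0.51) and Nid1 (1.31 ± 0.55) made up the rest, and Agrn, of high bulk level, had 0.2 ± 0.14.

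Where the collagens were expressed was read from the nuclei, grouped into 8 classes with collagen genes left out of the features and markers. They are called glutamatergic-like (29404 nuclei), astrocyte-like (5051), GABAergic-like (3667), oligodendrocyte-like (3327), microglia-like (3146), OPC-like (oligodendrocyte precursor, 2779), endothelial-like (166) and the Igf2/Notch3 cluster (137), and 7447 nuclei (13.5%) stayed unnamed. The Igf2/Notch3 cluster scored highest on the mural markers, but its leading genes were Col3a1, Igf2, Adamts12, Slc6a20 and Bnc2, with the mural gene Notch3 after them. It is therefore called by genes that lead it, and mural and fibroblast nuclei were not separated there. Its mural markers summed to 2940 CPM in the sham, 3110 in the naïve and 3200 and 2300 CPM in the TBI rats, and its fibroblast and meningeal markers to 605, 2020, 490 and 643 CPM. Its 10 astrocyte markers summed to 4010, 4710, 3160 and 2790 CPM, above the mural sum in every rat but TBI replicate 1. Of its 38, 34, 23 and 42 nuclei, 14, 17, 12 and 15 remained when nuclei holding markers of another class were left out. Levels below are CPM over all UMIs of a class and are not corrected for gene length. All levels by class are descriptions, with no test. The class of highest level of 35 members rests in part on the naming of clusters, since 18 to 20 of them kept it under 3 earlier forms of the naming score. Those forms gave no Igf2/Notch3 class, so members highest in it could not keep it. The class of highest level was kept by 25 with at least 1000 UMIs per nucleus and by 28 without nuclei holding markers of another class.

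Some collagens were far higher in 1 class than in the others, while Col25a1, Col11a1 and Col19a1 were among the members with the most UMIs in several classes. In OPC-like nuclei Col5a3, a minor type V chain, reached 1010 CPM (867 in the sham, 1460 in the naïve, 925 and 889 in the TBI rats), which was 10.7 times its level in the next class. The lowest rat in OPC-like nuclei lay above the highest rat of any other class. In GABAergic-like nuclei Col19a1, a fibril-associated collagen known from hippocampal interneurons, reached 541 CPM (555, 579, 476 and 567 CPM in the sham, naïve and TBI rats), 10.5 times the next class, with 4 of 4 rats above every other class. Col26a1, 75.5 CPM in the same nuclei (60.2 to 94.9), was 3.97 times the next class with no overlap between rats. In astrocyte-like nuclei Col11a2 reached 332 CPM (374, 271, 378 and 319 CPM), 12.2 times the next class and again apart in every rat. The level of Col16a1 was 118 CPM in astrocyte-like and 109 CPM in OPC-like nuclei, whose rats overlapped, and both lay above the remaining classes. Col27a1, a fibrillar chain, stood at 102 CPM in astrocyte-like nuclei (79.2 to 123) and at 63.5 CPM in OPC-like nuclei (52.3 to 89.2), which overlapped.

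**Figure D4:**
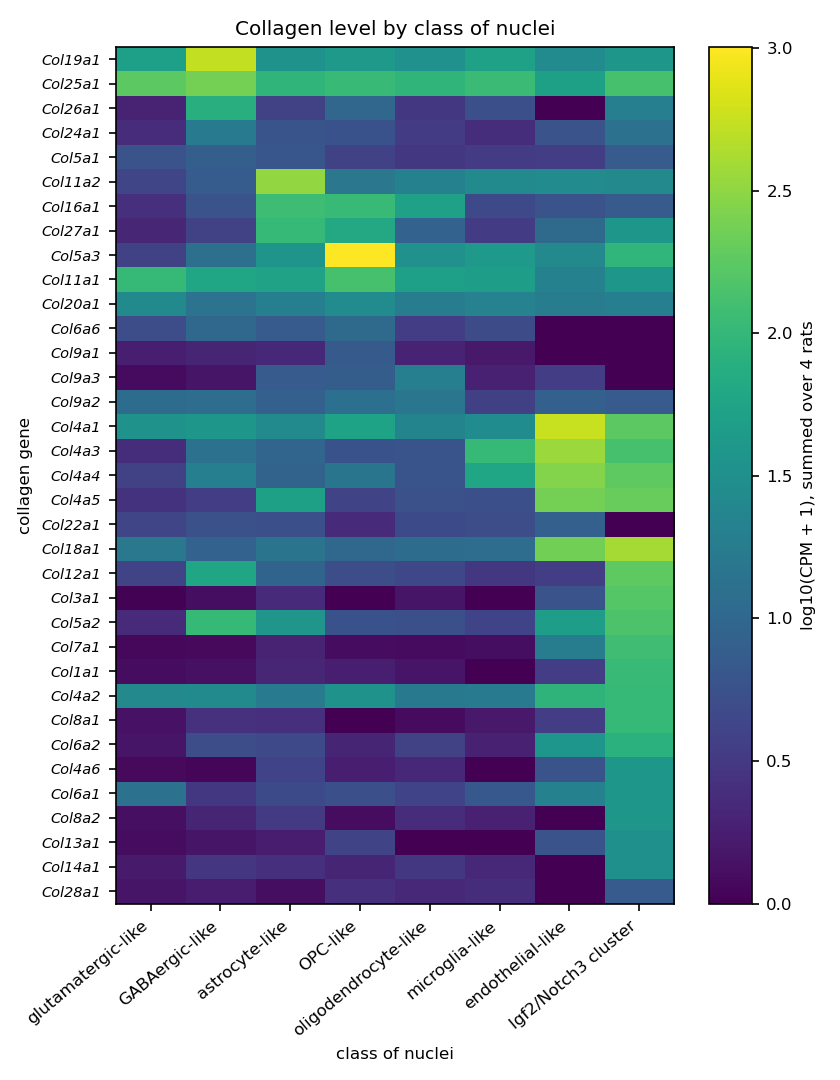
Level of the 35 collagen genes with at least 50 UMIs over the 8 classes, as log10(CPM + 1) summed over 4 rats (colour), genes grouped by the class in which each is highest. Col5a3 is brightest in OPC-like nuclei (1010 CPM), Col19a1 in GABAergic-like nuclei (541 CPM), Col11a2 in astrocyte-like nuclei (332 CPM) and Col4a1 in endothelial-like nuclei (564 CPM).

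Chains of the basement membrane had the most UMIs of the members in vascular nuclei. In endothelial-like nuclei Col4a1 reached 564 CPM (432, 784, 337 and 747 CPM), Col4a3 361 CPM (377, 323, 358 and 360 CPM) and Col4a4 282 CPM (305, 215, 253 and 297 CPM). Col4a1 and Col4a3 lay above every other class in every rat, while the rats of Col4a4 overlapped with the Igf2/Notch3 cluster at 183 CPM. These values rest on 228, 146 and 114 UMIs. Col4a3 and Col4a4 also stood at 101 and 58.5 CPM in microglia-like nuclei, among the 3 members with the most UMIs there, and Col4a3 had 77.4, 153, 82.2 and 103 CPM in the 4 rats. In the Igf2/Notch3 cluster Col18a1 reached 398 CPM (403, 309, 401 and 457 CPM, 63 UMIs), Col4a5 202 CPM (144, 333, 178 and 152) and Col4a4 183 CPM (115, 261, 267 and 135), equal in UMIs to Col12a1 at 183 CPM (86.5, 452, 44.5 and 102). Col7a1, the collagen of anchoring fibrils, stood at 120 CPM there and above every other class in every rat, on 19 UMIs.

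The 2 chains with the largest Log2FC in bulk were barely sampled in nuclei. Over the 8 classes, Col1a1 had 64 UMIs and Col3a1 57, of which 17 and 26 fell into the Igf2/Notch3 cluster. Of these, 15 UMIs of Col1a1 and 20 of Col3a1 came from the naïve rat, with 1 and 1 from the sham rat and 1 and 5 from both TBI rats together. Outside the cluster, 18 of the 19 UMIs of Col1a1 in glutamatergic-like nuclei came from TBI replicate 1. In astrocyte-like nuclei Col1a1 had 5, 7, 6 and 0 UMIs in the sham, naïve and TBI rats, and Col3a1 had 4, 10, 5 and 3. Neither gene had enough UMIs in the Igf2/Notch3 cluster to be tested. The other members higher in bulk TBI had their highest class as follows. Among the 8 classes, Col6a2 (82.1 CPM), Col8a2 (37.9 CPM) and Col13a1 (31.6 CPM) were highest in the Igf2/Notch3 cluster, on 13, 6 and 5 UMIs. Col18a1 was highest there as well. Unnamed nuclei were left out of this order, and their cluster 16 held Col6a2 at 109 CPM, above its level in the Igf2/Notch3 cluster. With at least 1000 UMIs per nucleus Col5a1 was highest in the Igf2/Notch3 cluster, and without nuclei holding markers of another class Col1a1 was highest in endothelial-like and Col8a2 in astrocyte-like nuclei. In the main reading Col16a1 was highest in astrocyte-like nuclei and Col5a1 at 7.14 CPM in GABAergic-like nuclei.

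Neuronal collagens were read in all classes. Col25a1 had the most UMIs of any member in glutamatergic-like nuclei, at 175 CPM (256, 124, 189 and 115 CPM), and stood at 239 CPM in GABAergic-like nuclei (282, 214, 234 and 219). It stood at 110 CPM in microglia-like (178, 92.9, 128 and 69.9) and at 91.9 CPM in oligodendrocyte-like nuclei (141, 62.7, 109 and 55.5). In each of these classes the sham rat and TBI replicate 1 lay above TBI replicate 2. The part of free RNA from neurons in the glial values was not tested. Col19a1 stood at 48.2 CPM in glutamatergic-like nuclei (70.7, 29.1, 51.6 and 40.1), and Col5a2 at 101 CPM in GABAergic-like nuclei (88, 83.6, 93.7 and 142). Col9a3, a fibril-associated chain of cartilage, was highest in oligodendrocyte-like nuclei at 18.6 CPM, above the next class in every rat. In oligodendrocyte-like nuclei Col16a1 stood at 51.8 CPM (44.8, 33.4, 53.1 and 65.4 CPM).

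Among the unnamed clusters, those of the vessels held type IV chains. A cluster of 128 nuclei led by the pericyte genes Vtn and Higd1b, with endothelial markers as well, held Col4a1 at 486 CPM, Col18a1 at 318, Col4a3 at 265 and Col4a4 at 190 CPM. A cluster of 140 nuclei with endothelial markers but led by astrocyte genes such as Gfap held Col4a1 at 219 CPM and Col11a2 at 151 CPM. Col1a1 had 1 UMI and Col3a1 2 UMIs in each of them. Outside the vessels, cluster 10 (1334 nuclei) held 1907 UMIs of Col4a1 and 692 of Col4a2, at 399 and 145 CPM, and cluster 9 (1927 nuclei) held 1343 and 666 UMIs, at 171 and 85 CPM. In glutamatergic-like nuclei Col4a1 stood at 32.9 CPM. Cluster 16 (742 nuclei) held 236 of the UMIs of Col6a2, at 109 CPM. Of its nuclei, 390 came from the sham rat, 13 from the naïve rat and 317 and 22 from TBI replicates 1 and 2. Clusters 9, 10 and 16 did not have the marker lead needed for a name.

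Col4a1 and Col4a2 lie head to head on chromosome 16 of the GRCr8 assembly, with 76 bases between their RefSeq starts, and Col4a3 and Col4a4 on chromosome 9 with 412 bases between theirs. A promoter was in the RefSeq table for 33 of the 42 members. The bases between the first pair are shown because a single stretch serves both genes, those before Col4a3 for the second pair, and those before Col16a1 and Col13a1 as 2 of the members with no overlap between bulk groups. Capitals mark any match, on either strand, to the GC box (GGGCGG), the motif of Sp1-like factors, and to the core promoter motifs named after the sequences, and the stretch before Col13a1 holds none of them.
Col4a2 to Col4a1, chr16:84885521-84885596, + strand: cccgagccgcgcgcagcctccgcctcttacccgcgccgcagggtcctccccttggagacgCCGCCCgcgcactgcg
Col4a3, chr9:91323840-91323989, + strand: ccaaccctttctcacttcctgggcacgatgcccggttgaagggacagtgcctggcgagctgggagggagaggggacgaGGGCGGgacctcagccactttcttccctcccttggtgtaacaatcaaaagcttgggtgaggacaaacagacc
Col16a1, chr5:147672946-147673095, + strand: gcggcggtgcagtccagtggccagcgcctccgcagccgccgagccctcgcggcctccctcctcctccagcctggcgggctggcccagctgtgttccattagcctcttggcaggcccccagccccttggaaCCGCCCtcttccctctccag
Col13a1, chr20:30466801-30466950, - strand: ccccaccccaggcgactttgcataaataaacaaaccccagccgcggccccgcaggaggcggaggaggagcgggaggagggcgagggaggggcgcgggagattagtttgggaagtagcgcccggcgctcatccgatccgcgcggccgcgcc
In the 250 bases before the start, GGGCGG or its reverse complement was found in 19 of 33 members and in 30.5% of all 33469 promoters of that length. CCAAT on either strand was found in 10 of 33 members and in 34.0% of all, and TATAAA in 3 of 33 and in 12.9%. Col13a1 is among the members with TATAAA, with a match that is not within the shorter stretch shown. Such a match is a description of the letters.

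TBI was compared with control (sham and naïve) within each class on UMI sums per rat. No member passed an FDR of 0.01 in any of the 8 classes by edgeR's quasi-likelihood test, where 0% of the tested genes did so, and 7 of 114 member and class pairs had an unadjusted p under 0.05, of which 6 were lower in TBI. Members tested per class ranged from 2 in the Igf2/Notch3 cluster to 26 in astrocyte-like nuclei.

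Of 25 members tested in glutamatergic-like nuclei 0 were higher and 1 lower (all genes 0.867% and 0.263%), and of 21 in GABAergic-like nuclei 0 and 0 (0.874% and 0.508%). The counts in astrocyte-like nuclei were 1 and 2 of 26 (6.77% and 5.7%), and in microglia-like nuclei 0 and 0 of 10 (1.19% and 1.12%). Of 12 in oligodendrocyte-like nuclei 0 were higher and 1 lower (1.23% and 0.993%), and of 13 in OPC-like nuclei 0 and 2 (1.73% and 1.24%). The vascular classes had none, among 5 endothelial-like members (1.17% and 1.21%) and 2 members of the Igf2/Notch3 cluster (2.28% and 1.9%). By overlap alone, both TBI rats lay above both controls for 1 member in glutamatergic-like nuclei and below for 1 (19.7% and 8.22% of all genes), and for 6 and 2 in GABAergic-like nuclei (19.7% and 9.02%), among them the type V chains Col5a1 and Col5a2 above and Col11a1 below. They lay above for 5 and below for 4 in astrocyte-like nuclei (26.4% and 17.7%), for 1 and 0 in microglia-like nuclei (18.5% and 11.8%), for 4 and 0 in oligodendrocyte-like nuclei (22.8% and 8.19%) and for 0 and 3 in OPC-like nuclei (19.4% and 13%). No tested member stood apart in endothelial-like (16.6% and 13.5%) or in the Igf2/Notch3 cluster (18.5% and 10.8%). Col18a1 lay above the controls in both TBI rats in GABAergic-like, astrocyte-like and oligodendrocyte-like nuclei, with Log2FC of 0.27 ± 0.49, 1.02 ± 0.44 and 0.95 ± 0.64, none with an unadjusted p under 0.05 (0.0514 in astrocyte-like nuclei).

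Col11a1 accounted for 3 of the 6 lower pairs. In glutamatergic-like nuclei it stood at 135 CPM in the sham, 113 in the naïve and 88.5 and 49.8 CPM in the TBI rats, and both TBI rats lay below both controls. The Log2FC was -0.91 ± 0.26 (unadjusted p = 0.0146, FDR = 1), where 0.263% of the 14068 genes tested were lower by that rule. OPC-like nuclei held 156 and 182 CPM in the controls and 122 and 83.7 CPM in the TBI rats, without overlap (Log2FC -0.75 ± 0.23, unadjusted p = 0.00904, FDR = 0.998, 1.24% of genes lower). In oligodendrocyte-like nuclei the values were 87.7 and 47.3 CPM in the controls and 49.7 and 20.6 CPM in the TBI rats, which overlapped (Log2FC -1.09 ± 0.43, unadjusted p = 0.0293, FDR = 0.999, 0.993% of genes lower). TBI replicate 2 was the lowest rat in all 3 classes, and these classes share the same 4 rats. Without it the Log2FC was -0.52 in OPC-like (unadjusted p = 0.134) and -0.58 in oligodendrocyte-like nuclei (unadjusted p = 0.212), and without the sham rat -0.62 in the latter (unadjusted p = 0.282). In glutamatergic-like nuclei the unadjusted p stayed under 0.05 without each rat in turn. The level in oligodendrocyte-like nuclei (49.3 CPM) was close to those in microglia-like (46.7) and astrocyte-like nuclei (52.3) and below that in glutamatergic-like nuclei (102), and the part of free neuronal RNA in it was not tested. In bulk, which reads the whole tissue, the Log2FC of Col11a1 was -0.02 ± 0.25.

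In astrocyte-like nuclei 1 of 26 tested members was higher in TBI and 2 were lower, where 6.77% and 5.7% of all 12586 genes were. Col4a1 stood at 21.1 and 19.2 CPM in the controls and 36.4 and 31.3 CPM in the TBI rats (Log2FC 0.69 ± 0.24, unadjusted p = 0.0238, FDR = 0.321). Col27a1 stood at 123 and 107 CPM in the controls and 90.4 and 79.2 CPM in TBI (Log2FC -0.5 ± 0.17, unadjusted p = 0.0187, FDR = 0.293), and Col4a5 at 66.3 and 54.2 against 32.3 and 48.5 CPM (Log2FC -0.65 ± 0.24, unadjusted p = 0.0299, FDR = 0.336). The groups did not overlap for any of these 3 genes. The 10 astrocyte markers summed to 8080 and 9690 CPM in the controls and 5130 and 7310 CPM in the TBI rats of this class, and the 9 glutamatergic markers to 2050 and 2120 against 2980 and 2670 CPM. The part of these shifts in the collagen values was not tested. A cluster of 2090 nuclei that scored highest on astrocyte markers but was led by mitochondrial genes stayed unnamed, outside this class. It held 557 nuclei of the sham, 283 of the naïve and 456 and 794 of the TBI rats. The third earlier naming score put it into the class, and the call of Col4a1 was then lost. The call of Col4a1 was lost without the sham rat, the naïve rat or TBI replicate 1 (unadjusted p between 0.0503 and 0.115), that of Col27a1 without the sham rat or TBI replicate 2 (0.0893 and 0.0847), and that of Col4a5 without the sham rat or TBI replicate 1 (0.141 and 0.167). Without nuclei holding markers of another class, Col27a1 had a Log2FC of -0.34 (unadjusted p = 0.106) and Col4a1 of 0.55 (0.0636), and by DESeq2 Col4a1 had an unadjusted p of 0.0555. Col11a2, the member with the most UMIs in these nuclei, had a Log2FC of 0.05 ± 0.19, and Col16a1, higher in bulk TBI, had -0.15 ± 0.2 here and -0.53 ± 0.22 in OPC-like nuclei. For the latter the controls held 118 and 140 CPM and the TBI rats 103 and 80.6 CPM (unadjusted p = 0.0402, FDR = 0.998), and the call was lost without the naïve rat or either TBI rat.

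**Figure D5:**
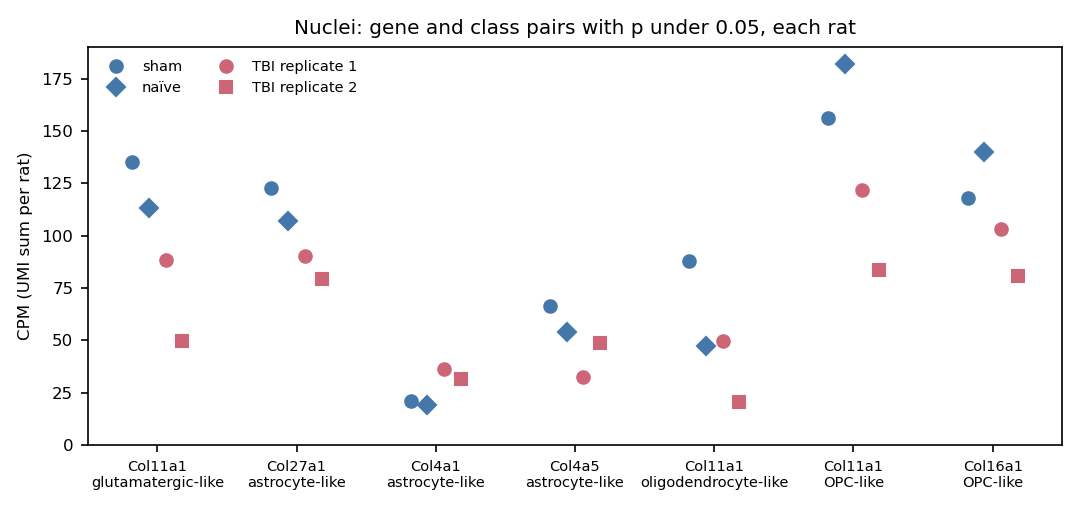
CPM per rat from UMI sums for the 7 gene and class pairs with an unadjusted p under 0.05 (blue controls, red TBI rats). Both TBI rats lie below both controls for 5 pairs and above for Col4a1 in astrocyte-like nuclei, and the groups overlap for Col11a1 in oligodendrocyte-like nuclei.

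The other members named for their UMIs had no call. In endothelial-like nuclei 5 members were tested, with Log2FC of -0.1 ± 0.45 for Col4a1, -0.02 ± 0.31 for Col4a3, 0.02 ± 0.35 for Col4a4, 0.12 ± 0.36 for Col4a5 and 0.24 ± 0.86 for Col18a1. In GABAergic-like nuclei Col19a1 had -0.19 ± 0.16 and Col5a2 0.39 ± 0.24. Col5a3 in OPC-like nuclei had -0.4 ± 0.25, with the naïve rat above the other 3. Whether the TBI effect differed among the 8 classes was tested on 33 members with rat as a block, and 0 had an unadjusted p under 0.05, where 329 of 12799 genes (2.57%) did. The smallest unadjusted p of a member was 0.0516, for Col1a1.

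The genes that make, bind and break down collagen were read in nuclei from the same lists. None passed an FDR of 0.01 in any of the 8 classes by edgeR, where 0% of the tested genes did so. In astrocyte-like nuclei 1 of 21 tested synthesis and processing enzymes was higher in TBI and 2 were lower with an unadjusted p under 0.05, and of 7 receptors 1 was higher and 2 lower. By that rule 6.77% of all genes were higher and 5.7% lower in these nuclei. Of 6 breakdown enzymes and inhibitors there 2 were lower (Timp3 and Timp4), and of 12 basement membrane and fibril partners 1 was higher and 1 lower. The lower ones were Loxl1, Loxl3, Itgb1, Lair1 and Lama2, and the higher ones Tll1, Itga11 and Fbn1. The FDR of the calls in this class lay between 0.18 and 0.392. Itga11 was also a leading gene of a glutamatergic-like cluster of 5960 nuclei. Glutamatergic markers were higher in TBI in astrocyte-like nuclei, as given above, and their part in this call was not tested. Agrn, which organises the basement membrane, was higher in TBI in glutamatergic-like (Log2FC 0.72 ± 0.19, unadjusted p = 0.0114) and GABAergic-like nuclei (0.74 ± 0.25, unadjusted p = 0.0246). Adamts14, a procollagen protease, was higher in glutamatergic-like nuclei (2.86 ± 0.95, unadjusted p = 0.0284). The lists held 46 tested genes in glutamatergic-like nuclei, where 0.867% of all genes were higher and 0.263% lower. In GABAergic-like nuclei 36 were tested (0.874% and 0.508% of all genes). In microglia-like nuclei Mrc2, higher in bulk TBI, was lower (-0.9 ± 0.23, unadjusted p = 0.00465, FDR = 0.999), and P3h1 was higher (1.71 ± 0.7, unadjusted p = 0.0404, FDR = 0.999). The lists held 28 tested genes in this class, where 1.19% of all genes were higher and 1.12% lower. In OPC-like nuclei Bmp1 (0.91 ± 0.31), Plod1 (1.29 ± 0.52) and Fbn1 (0.46 ± 0.19) were higher and P3h2 was lower (-1.44 ± 0.55). Their unadjusted p lay between 0.0167 and 0.0351, each at an FDR of 0.998. The class had 33 tested list genes, and 1.73% of all its genes were higher and 1.24% lower. None of 29 list genes tested in oligodendrocyte-like nuclei, 14 in endothelial-like nuclei and 7 in the Igf2/Notch3 cluster had an unadjusted p under 0.05. Of all genes, 1.23% were higher and 0.993% lower in oligodendrocyte-like nuclei. The shares were 1.17% and 1.21% in endothelial-like nuclei and 2.28% and 1.9% in the Igf2/Notch3 cluster. With the 5 vascular clusters pooled, a choice made after the data had been seen, 14 members were tested and 0 had an unadjusted p under 0.05, with Log2FC of 0.01 ± 0.32 for Col4a1 and -0.03 ± 0.33 for Col18a1.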

How the data were processed

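RNA was measured in bulk (3 TBI, 3 sham rats) and in nuclei (2 TBI, 1 sham, 1 naïve rat). For bulk, the authors mapped reads with kallisto to a rat reference, and the labels name Rnor_6.0. The deposited tables hold estimated counts per transcript (25121893 to 44649404 per library) and log2 CPM per gene with 0.5 added. Gene counts were worked back from the deposited log2 CPM and rounded. For nuclei, the authors counted UMIs with Cell Ranger on exons and introns, and the deposited matrices hold counts.

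Of the nuclei, those with at least 500 UMIs, 300 genes, a complexity of 0.8, at most 5% mitochondrial and 2% ribosomal UMIs were kept. The ribosomal pattern was chosen among several by the number of nuclei it left beside the number the study states. They were integrated with Seurat 5.3.0 (2000 variable features, the 25 collagens among them left out, 25 components, resolution 0.6). Clusters were named from non-collagen markers, and left unnamed where fewer than 3 markers led, where the score exceeded that of the next class by less than 0.5, or where the 10 leading genes held more markers of another class than of their own or were largely mitochondrial. The naming score was settled as the last of several, after names and leading genes, some of them collagens, had been seen. Doublets were not called, but nuclei with markers of another class were left out as an alternative.

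Tests were edgeR 4.0.16 quasi-likelihood fits with TMM over all genes and Benjamini-Hochberg FDR, in bulk and on UMI sums per rat and class, in R 4.3.3. DESeq2 1.42.0 and limma 3.58.1 were alternatives. Scripts were tested on simulated data. Rats are the replicates, all p-values are two-sided, and 1 sham and 1 naïve rat formed the nucleus control. Members and lists were chosen with earlier results of these data known, and the collagen families after values had been seen. Bulk values in every library are given for members with an unadjusted p under 0.05 or without overlap and with an absolute Log2FC of at least 1, and for the 5 members of highest mean CPM, since no lengths were used. Nucleus values per rat are given for the 3 members with most UMIs in each class and for called members. Promoters came from RefSeq (GRCr8), by symbol. Dates of injury were read only as a period, called spring for months before July and autumn for the others. In same-numbered sham and TBI libraries, deviations from group means correlated at 0.438, 0.292 and -0.0473, and in differently numbered ones between -0.414 and 0.17. Whether the numbers are pairs cannot be told from these values, and they were not treated as pairs.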

Additional observations from a re-analysis of the deposited data

How the results depend on the processing

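Of the 34 bulk members, 8 were higher and 0 lower in TBI with an unadjusted p under 0.05. Higher members numbered 11 by DESeq2 (8.11% of all genes), 5 by limma (8.68%) and 4 with the period as covariate (5.57%). They numbered 4 to 16 when 1 library was left out (5.03% to 9.48%). Lower members numbered 1 by DESeq2 under either adjustment (2.66%), 1 with the period (0.826%) and 0 to 1 when 1 library was left out (0.466% to 4.26%). With the replicate block 10 were higher (8.91% of all genes), but whether the numbers pair the libraries is not known. At an FDR of 0.01 the members numbered 0, or 3 under the adjustment of the study, 2 of them with an absolute Log2FC of at least 1.5. Members with all TBI libraries above sham numbered 5, or 5 to 16 when 1 library was left out, and those below 0, or 0 to 2. With a library left out, the groups of any gene separate more easily, and no share of all genes is given for those cases. The Log2FC of Col4a2 turned from 0.02 to -0.01 by DESeq2 under either adjustment, -0.04 with the period, -0.01 within autumn and lay between -0.08 and 0.09 when 1 library was left out, below 0 without sham replicate 1, sham replicate 2 or TBI replicate 3. That of Col4a1 turned from 0.17 to -0.12 without TBI replicate 3 and lay between -0.12 and 0.33 over those fits. In nuclei 1 pair of member and class was higher and 6 were lower, of 114 tested. Pairs tested numbered 114 by DESeq2, 294 with no filter, 102 without nuclei holding markers of another class and 121 under the third naming score. Without the sham rat, the naïve rat and TBI replicates 1 and 2 they numbered 132, 126, 128 and 133. The counts that follow are of these totals, and no share of all genes is given for them. They therefore cannot show whether the collagens changed more than other genes. Higher pairs numbered 0 by DESeq2, 5 with no filter, 0 without nuclei holding markers of another class, 0 under the third naming score and 0 to 9 without 1 rat (9 without the sham rat, 0 without the naïve rat, 3 and 4 without TBI replicates 1 and 2). Lower pairs numbered 11 with no filter and 3 to 13 without 1 rat (8, 12, 13 and 3 in the same order). The class of highest level was read for 35 members, and 18, 20 and 19 kept it under naming scores 1, 2 and 3, which were added after the data had been seen, as was leaving out nuclei for levels. Those scores gave no Igf2/Notch3 class, so members highest in it could not keep it. The only other members that moved under them were Col11a1 and Col6a6 under score 1 and Col16a1 under score 3. The cause of the moves of these other members was not tested. Astrocyte-like nuclei could not be tested at resolution 0.3, endothelial-like and Igf2/Notch3 nuclei at 1000 UMIs, nor the latter under naming scores 1 to 3 or without nuclei of other markers. At least 1000 UMIs per nucleus and leaving out nuclei with other markers kept the class of 25 and 28 members.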
